A study of Mus musculus with 8 samples.

Results

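The transcripts of mitosis and the G2/M transition were followed in 4 populations of mouse adult fibroblasts (MAFs) that differed in the retinoblastoma gene Rb1 and in exposure to the DNA-crosslinking drug cisplatin (CDDP). The list held 43 genes, from cyclins and Cdk1 to kinesins, kinetochore and checkpoint genes. By the array annotation 42 of them had a probe set, of 18193 genes and 45037 probe sets in all, and each was read from its probe set with the highest mean log2 signal over the 8 arrays. Ccnb1, the gene of cyclin B1, had no probe set under its symbol and is given no value.

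All of the cells came from the peritoneal fascia of mice with floxed Rb alleles, and every population carried p53DD, a truncated dominant negative p53 delivered by retrovirus, selected and kept as a pool. Cre Recurred cells (RB-p53DD in the sample names) had received adenovirus with GFP and Cre, which deletes part of Rb1, were then treated with cisplatin for 24 h and had grown out again afterwards. GFP Recurred cells (RB+p53DD) had received adenovirus with GFP only and went through the same treatment and outgrowth. Cre Naïve and GFP Naïve cells were their untreated counterparts. Each population was measured on 2 Affymetrix GeneChip arrays of the mouse genome, which the sample names give as biological replicates and the methods as independently generated populations. No sample in these comparisons had intact p53, so the values say nothing about RB in cells with working p53.

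Cells entering mitosis depend on cyclin A2 and the B cyclins, which activate the kinase Cdk1 once Cdc25 phosphatases have removed its inhibitory phosphates. Aurora and Polo-like kinases then build the spindle, kinesins move microtubules and chromosomes along it, and the kinetochore ties each chromosome to it. The spindle checkpoint holds back the anaphase promoting complex until every kinetochore is attached. Most of these genes are transcribed late in the cell cycle under the B-Myb and FoxM1 factors with the MuvB complex, and are repressed in quiescent cells by MuvB together with pocket proteins related to RB. In bulk RNA, a larger share of cells in G2 or mitosis and more transcript per cell cannot be told apart.

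The late cell cycle promoters show the letters through which this class is known to be read, the cell cycle genes homology region (TTTGAA) near the start site and CCAAT boxes bound by NF-Y upstream of it. The RefSeq promoter table (GRCm38.p6, 250 bases before to 50 after each start) held windows for 37 of the 43 genes, Ccnb1 included. The sequences below are the 120 bases directly before the start of 6 genes with TTTGAA in that stretch, of which Ube2c, Ccnf and Ckap2 were called in the comparison of the recurred cells and Espl1, Cdk1 and Cdc20 were not, and of the called genes Bub1 and Cenpe, which have CCAAT there but no TTTGAA. Capitals mark TTTGAA or its reverse complement TTCAAA and CCAAT or its reverse complement ATTGG. The stretches are those of Ube2c (chr2:164769809-164769928, plus strand), Ccnf (chr17:24251410-24251529, minus strand), Ckap2 (chr8:22185820-22185939, minus strand), Espl1 (chr15:102296173-102296292, plus strand), Cdk1 (chr10:69352913-69353032, minus strand), Cdc20 (chr4:118437344-118437463, minus strand), Bub1 (chr2:127831860-127831979, minus strand) and Cenpe (chr3:135212443-135212562, plus strand), each written along the strand of its gene.
Ube2c: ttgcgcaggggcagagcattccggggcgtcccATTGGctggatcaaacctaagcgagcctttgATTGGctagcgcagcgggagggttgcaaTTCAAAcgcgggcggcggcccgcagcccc
Ccnf: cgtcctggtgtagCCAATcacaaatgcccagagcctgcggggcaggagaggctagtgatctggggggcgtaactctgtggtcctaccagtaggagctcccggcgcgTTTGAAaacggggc
Ckap2: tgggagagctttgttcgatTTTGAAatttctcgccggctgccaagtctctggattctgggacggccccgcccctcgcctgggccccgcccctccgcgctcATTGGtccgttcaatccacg
Espl1: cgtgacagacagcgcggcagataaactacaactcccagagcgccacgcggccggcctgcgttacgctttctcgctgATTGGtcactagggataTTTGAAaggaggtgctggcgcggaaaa
Cdk1: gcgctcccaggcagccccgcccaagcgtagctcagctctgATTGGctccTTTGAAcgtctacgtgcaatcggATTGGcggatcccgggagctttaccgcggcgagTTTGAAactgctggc
Cdc20: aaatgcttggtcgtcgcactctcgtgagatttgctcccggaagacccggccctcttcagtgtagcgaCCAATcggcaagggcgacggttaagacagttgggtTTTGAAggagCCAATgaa
Bub1: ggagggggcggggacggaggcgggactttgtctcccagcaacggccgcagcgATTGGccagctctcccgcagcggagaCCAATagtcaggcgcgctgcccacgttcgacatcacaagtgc
Cenpe: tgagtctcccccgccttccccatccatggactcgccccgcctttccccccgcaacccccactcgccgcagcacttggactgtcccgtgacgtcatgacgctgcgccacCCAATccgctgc

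Counted from the start site, TTTGAA lay at -29 to -24 in Ube2c (as TTCAAA), -14 to -9 in Ccnf, -27 to -22 in Espl1, -18 to -13 in Cdc20 and at both -71 to -66 and -15 to -10 in Cdk1. In Ckap2 it lay farther out, at -101 to -96. Over both strands, TTTGAA stood in 28 of the 39 windows of the listed genes (71.8%), against 17.9% of all 32851 windows, and within 50 bases of the start in 26 (66.7%), against 4.94%. CCAAT stood in 30 windows (76.9%), against 37.4%, and both together in 25 (64.1%), against 6.95%. The E2F letters TTCCCGC or TTGGCGC were in 4 windows (10.3%), against 6.81%. Of the 7 called genes with a window, 5 held TTTGAA and 7 CCAAT, and of the 30 other listed genes with a window 21 held each. These others include Ccnb1 (CCAAT without TTTGAA), which had no probe set and could not be called. These are matches of letters, not measured binding sites.

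The signals are log2 values from the Robust Multichip Average (RMA), so a difference of 1 is a doubling. The listed genes were bright, with mean log2 signals of 8.36 to 12.1 and a median of 10.45, against 5.40 for all probe sets. Rb1, the targeted gene, averaged log2 5.22 in Cre Recurred and 8.50 in GFP Recurred cells, and 5.96 in Cre Naïve and 8.03 in GFP Naïve cells (Cre minus GFP -2.67 over both states, adjusted p = 0.034). Where its probe set lies relative to the deleted part was not checked. Fibroblast genes were among the brightest (Vim, Fn1 and the collagens Col1a1, Col1a2 and Col3a1 at log2 11.7 to 13.84 on all arrays). The defining genes of leukocytes (Ptprc, Itgam), endothelium (Pecam1, Cdh5), epithelium (Cdh1) and fat cells (Adipoq) stayed between log2 2.50 and 4.32. Other genes of these lists were brighter, among them Csf1r (6.37 to 8.19) and Lyz2 (4.45 to 6.92) of leukocytes and Fabp4 (7.20 to 9.55) of fat cells. Kdr of endothelium (5.91 to 6.23) and Epcam (5.65 to 6.60) and Krt8 (4.53 to 5.34) of epithelium were brighter too. Of the fibroblast genes, Dcn was at 10.95 and 12.53 in Cre Recurred cells, against 12.74 to 13.48 on the other arrays, Thy1 at 9.92 and 9.93, against 8.39 to 9.27, and Fap, which was not bright, at 3.65 and 5.24, against 5.76 to 7.45. Pdgfra (9.93) and Pdgfrb (10.20) were lowest on Cre Recurred replicate 1. Of the 6 mesothelial genes, Msln was higher in Cre Recurred cells (8.85 and 7.82, against 6.15 to 6.98 elsewhere), while Upk3b and Lrrn4 lay at log2 2.71 to 4.14 throughout. Krt19 of the same list (7.23 and 6.26 in Cre Recurred cells, 6.11 on Cre Naïve replicate 2, 4.48 to 5.37 elsewhere) and the muscle gene Des (7.28 and 7.49, 7.32, and 5.72 to 6.35) had their highest values on the arrays on which the mitotic genes were high. On the remaining arrays Krt19 was highest on GFP Naïve replicate 1 (5.37), where the mitotic genes were lowest. The other muscle genes did not share this pattern. Acta1 was highest in Cre Recurred cells but lower on Cre Naïve replicate 2 (6.17) than on Cre Naïve replicate 1 (6.36). Myh11 stayed dim, at or below 4.53. Myog was highest on Cre Naïve replicate 2 (5.43), but its Cre Recurred arrays (4.75 and 4.69) lay below GFP Naïve replicate 2 (4.92). The part of these shifts in the values that follow was not tested.

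Cre Naïve replicate 2 stood apart from its partner. On the first principal component of all probe sets (47.7% of the variance) it lay at 22.9, against -40.0 for Cre Naïve replicate 1, between the Cre Recurred arrays (80.4 and 56.3) and the 4 GFP arrays (-41.9 to -13.5). It also had the widest 3′ to 5′ gap of the Actb control probe sets (log2 0.88, against 0.42 to 0.79 on the others), with a Gapdh gap of 0.36 where the arrays ran from 0.10 to 0.40. The calls and medians without either Cre Naïve array are given beside the comparisons they change. Counts of arrays that do not overlap were also taken without Cre Naïve replicate 2, a choice made after seeing the data.

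The mitotic genes were highest in Cre Recurred cells and on Cre Naïve replicate 2. Set against each gene's mean over the 8 arrays, the median of the 42 genes was 0.11 and 0.37 in Cre Recurred, -0.23 and -0.22 in GFP Recurred, -0.05 and 0.34 in Cre Naïve and -0.25 and -0.06 in GFP Naïve cells. All 42 genes were above their mean on Cre Recurred replicate 2 and 40 on Cre Naïve replicate 2, against 1 and 5 on the GFP Recurred arrays. Cre Recurred replicate 2 and Cre Naïve replicate 2 held the highest value of 19 genes each. GFP Naïve replicate 1 (-0.25) was the lowest array, with the GFP Recurred arrays next above it. Replicate 2 exceeded replicate 1 by a median of 0.04 in GFP Recurred cells, 0.28 in Cre Recurred, 0.43 in Cre Naïve and 0.17 in GFP Naïve cells.

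**Figure D1:**
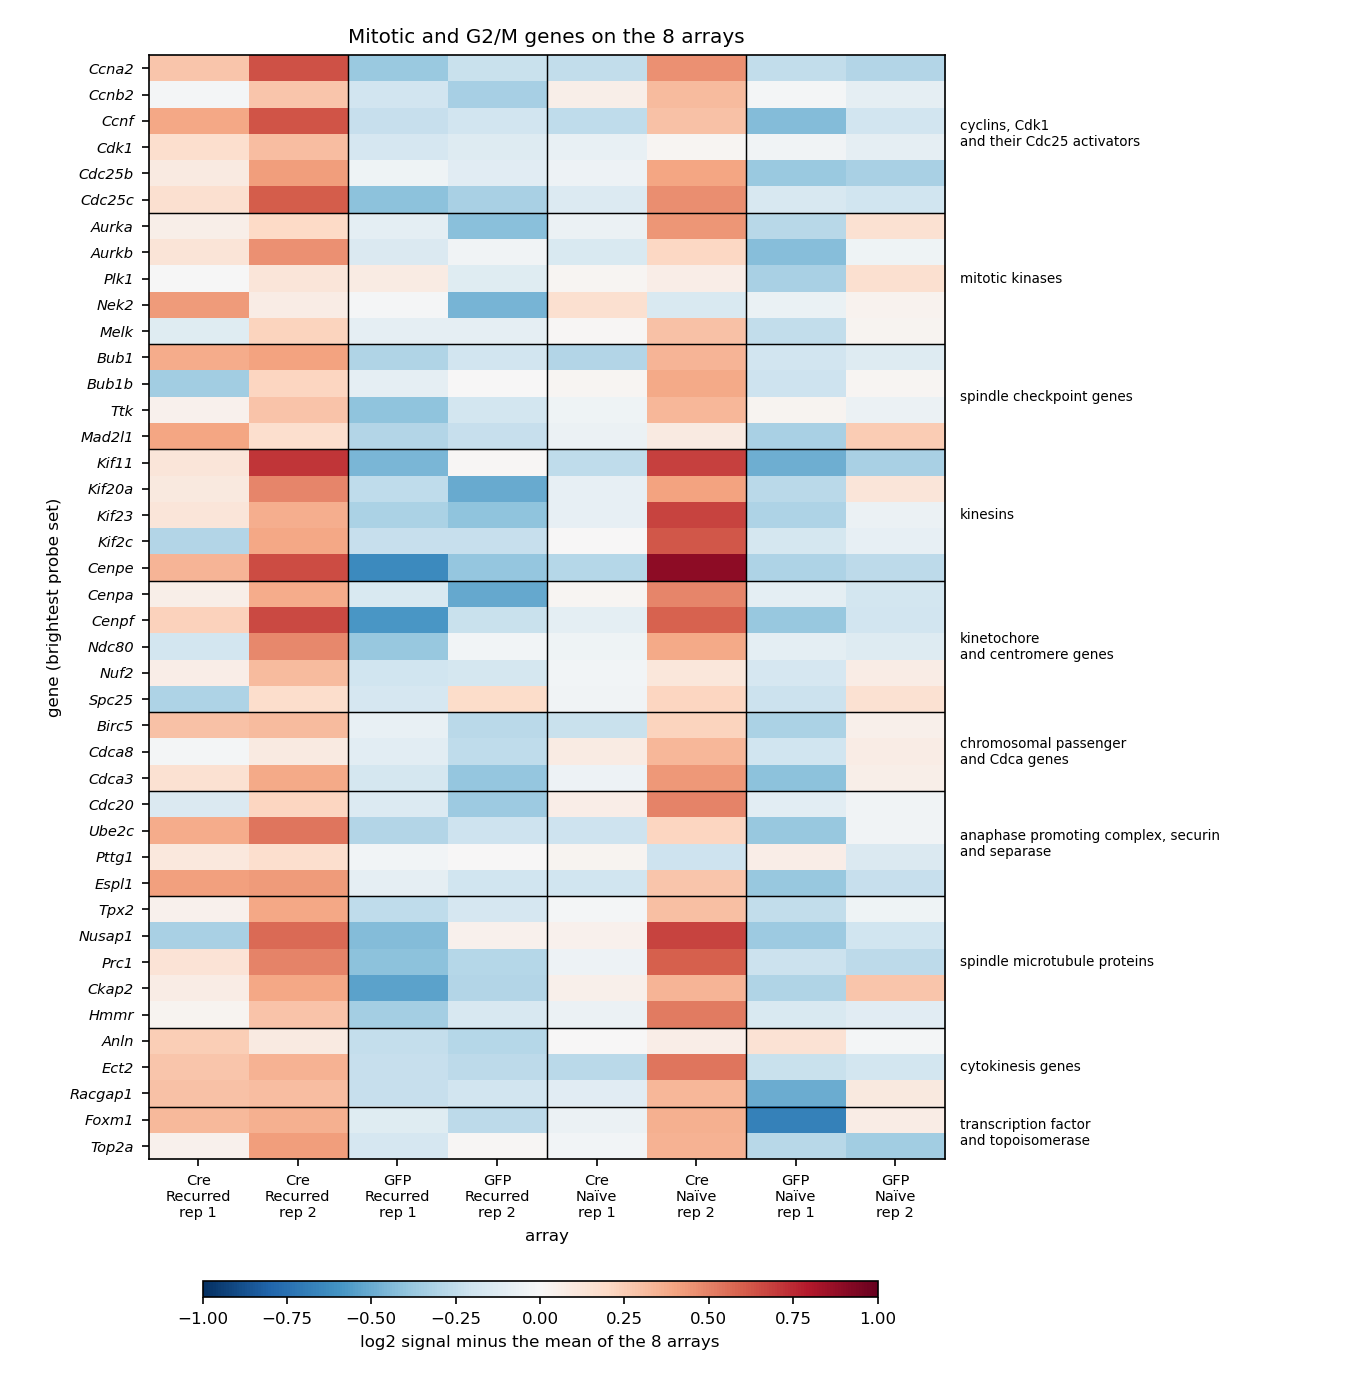
Log2 RMA signal of the 42 genes on each of the 8 arrays (columns), each gene (row) relative to its mean over the arrays and grouped by role, on a colour scale from -1 to 1. Cre Recurred replicate 2 and Cre Naïve replicate 2 are above the mean for 42 and 40 genes, and the GFP Recurred arrays for 1 and 5.

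Recurred cells without RB were compared with recurred cells that kept it. Cre Recurred cells exceeded GFP Recurred cells in 40 of the 42 genes, where 58.2% of all probe sets were higher. The median log2 difference was 0.47 (range -0.08 to 1.01, median standard error 0.21), against 0.05 for all probe sets. By the study's thresholds (1.5-fold and a Benjamini-Hochberg adjusted p under 0.25 over all probe sets, termed called), 10 genes were higher and 0 lower, or 10 of 42 against 4.08% of all probe sets called higher. At an adjusted p under 0.05, 0 of the 42 genes passed, and 22 had an unadjusted p under 0.05, all of them higher, against 9.11% of all probe sets higher at that p. The 2 Cre Recurred arrays lay above both GFP Recurred arrays for 34 genes and below them for 0, where 31.2% of all probe sets lay above. Among the 9552 probe sets as bright as the dimmest of these genes, 6.39% were called higher and 33.6% lay above without overlap. The genes do not count as independent observations, because many moved together between arrays of the same population. Replicate 2 was above replicate 1 for 39 of the 42 genes in Cre Recurred cells and for 26 in GFP Recurred cells.

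The count of called genes rested on all 4 recurred arrays. It was 0 without GFP Recurred replicate 1, without GFP Recurred replicate 2 or without Cre Recurred replicate 1, fits in which 346, 42 and 270 of all probe sets were called in either direction, against 3988 with every array. Without Cre Recurred replicate 2 it was 1 (Nek2), although 4985 of all probe sets (11.1%) were called in that fit. The log2 differences of the 10 called genes stayed between 0.47 and 1.17 in every such fit, and the median over the 42 genes between 0.37 and 0.56. The 3′ to 5′ gap of the control probe sets was narrower in Cre Recurred cells for both Actb (log2 0.49 and 0.59, against 0.66 and 0.79 in GFP Recurred cells) and Gapdh (0.12 and 0.19, against 0.23 and 0.40). The part of RNA quality in this comparison was not tested.

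**Figure D2:**
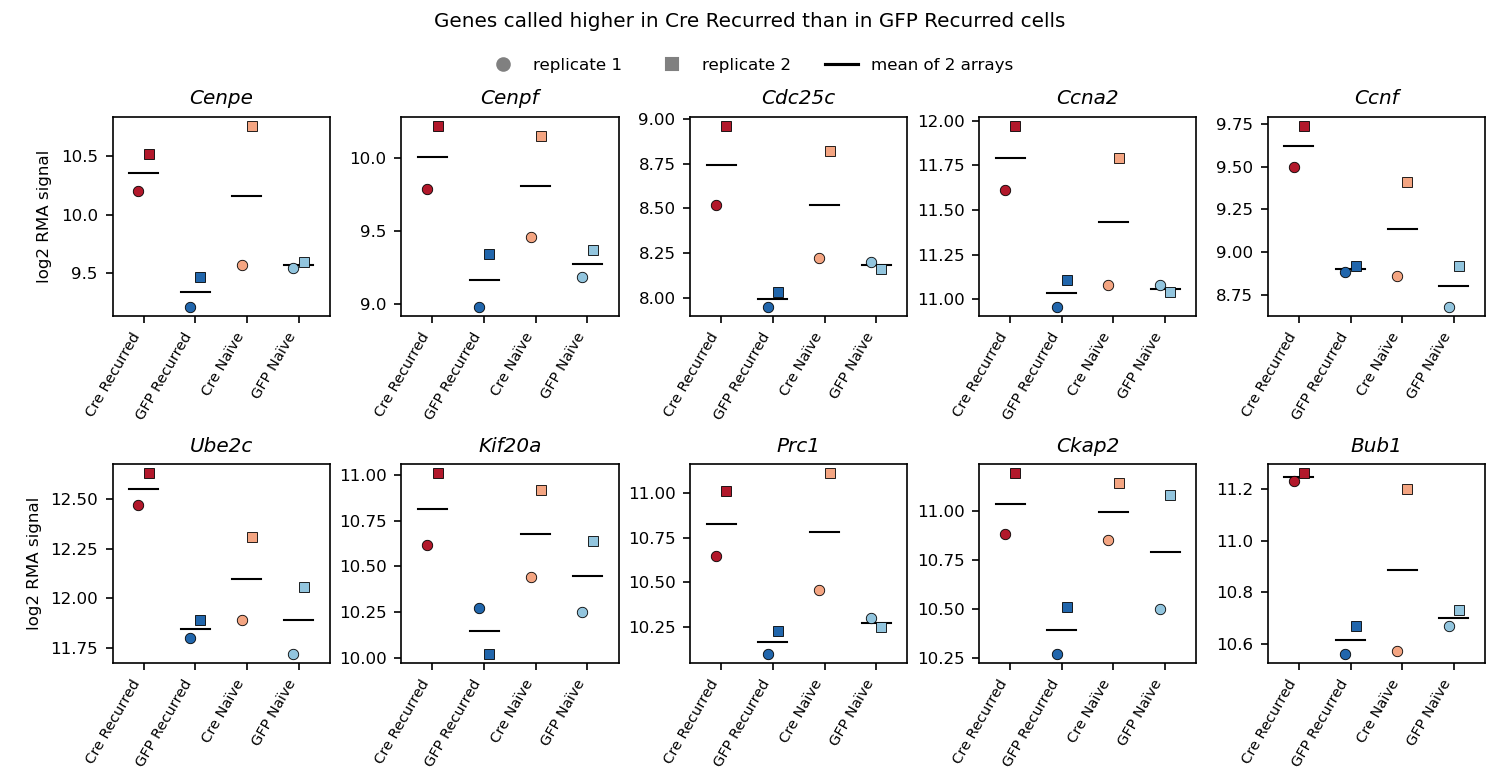
Log2 RMA signal (vertical axis, a separate scale per gene) of the 10 genes called higher in Cre Recurred than in GFP Recurred cells, by population, with replicate 1 as circles, replicate 2 as squares and the mean of both arrays as a line. In all 10 panels both Cre Recurred arrays lie above both GFP Recurred arrays, and Cre Naïve replicate 2 lies above Cre Naïve replicate 1.

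Among the cyclins, Cdk1 and the Cdc25 phosphatases, 3 of 6 measured genes were called higher in Cre Recurred cells, and the median difference was 0.55 (0.32 to 0.75). Ccna2, whose cyclin drives S phase and entry into mitosis, had log2 signals of 11.61 and 11.97 on the Cre Recurred arrays, 10.96 and 11.11 on the GFP Recurred arrays, 11.08 and 11.79 on the Cre Naïve arrays and 11.08 and 11.04 on the GFP Naïve arrays. Both Cre Recurred arrays were above both GFP Recurred arrays, and Cre Naïve replicate 2 lay between the Cre Recurred arrays (1.68-fold, log2 0.75 ± 0.24 SE, adjusted p = 0.18). Its second probe set gave a larger difference of 1.13 (adjusted p = 0.071).

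Ccnf, the F-box cyclin that marks proteins for destruction in G2, had 9.50 and 9.74 on the Cre Recurred arrays, 8.88 and 8.92 on the GFP Recurred arrays, 8.86 and 9.41 on the Cre Naïve arrays and 8.68 and 8.92 on the GFP Naïve arrays. It was 1.64-fold higher in Cre Recurred than in GFP Recurred cells (0.72 ± 0.20 SE, adjusted p = 0.14), and both Cre Recurred arrays exceeded the other 6. Cdc25c, a phosphatase that releases Cdk1 from inhibition, had 8.52 and 8.96 on the Cre Recurred arrays, 7.95 and 8.03 on the GFP Recurred arrays, 8.22 and 8.82 on the Cre Naïve arrays and 8.20 and 8.16 on the GFP Naïve arrays. GFP Recurred cells held its lowest values, and it was 1.68-fold higher in Cre Recurred cells (0.75 ± 0.23 SE, adjusted p = 0.16).

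Cdk1, the mitotic kinase itself, spread little within populations, at 12.23 and 12.37 on the Cre Recurred arrays, 11.89 and 11.93 on the GFP Recurred arrays, 11.99 and 12.08 on the Cre Naïve arrays and 12.03 and 11.97 on the GFP Naïve arrays. The Cre Recurred arrays were the highest of the 8 and the GFP Recurred arrays the lowest, but the difference of 0.39 ± 0.12 SE stayed under 1.5-fold (adjusted p = 0.17). Cdc25b had 8.99 and 9.32 in Cre Recurred, 8.86 and 8.79 in GFP Recurred, 8.85 and 9.30 in Cre Naïve and 8.53 and 8.58 in GFP Naïve cells. Its Cre Naïve replicate 2 was close to its highest Cre Recurred array, and the 0.32 between the recurred populations did not pass (adjusted p = 0.45). Ccnb2, the other B cyclin, differed by 0.39 (adjusted p = 0.28).

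Of the 5 mitotic kinases, 0 were called, and the median was 0.38 (0.08 to 0.48). Aurka, which matures the centrosomes, had 10.66 and 10.80 in Cre Recurred, 10.50 and 10.18 in GFP Recurred, 10.54 and 11.04 in Cre Naïve and 10.32 and 10.75 in GFP Naïve cells. Both Cre Recurred arrays were above both GFP Recurred arrays, and the difference of 0.39 did not pass (adjusted p = 0.45). Aurkb, the kinase of the chromosomal passenger complex, had 9.93 and 10.26 in Cre Recurred, 9.66 and 9.77 in GFP Recurred, 9.65 and 10.01 in Cre Naïve and 9.38 and 9.76 in GFP Naïve cells, a difference of 0.38 between the recurred populations (adjusted p = 0.40).

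Plk1, the Polo-like kinase of mitotic entry and spindle assembly, was nearly level at 10.39 and 10.51 in Cre Recurred, 10.47 and 10.27 in GFP Recurred, 10.41 and 10.46 in Cre Naïve and 10.07 and 10.55 in GFP Naïve cells. Its lowest and highest values were the 2 GFP Naïve arrays, and the recurred populations overlapped (0.08 ± 0.18 SE, adjusted p = 0.88). Nek2, a centrosome kinase, had 10.58 and 10.23 in Cre Recurred, 10.14 and 9.69 in GFP Recurred, 10.31 and 10.00 in Cre Naïve and 10.09 and 10.19 in GFP Naïve cells. It was an exception to the height of replicate 2 in the Cre populations, and its difference of 0.48 did not pass (adjusted p = 0.30), while another of its probe sets was called (0.63, adjusted p = 0.19). Melk, an embryonic leucine zipper kinase abundant in dividing cells, differed by 0.14 (adjusted p = 0.77).

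Of the 4 spindle checkpoint genes, 1 was called and the median was 0.50 (-0.02 to 0.63). Bub1, a kinase that loads checkpoint proteins onto the kinetochore, had 11.23 and 11.26 on the Cre Recurred arrays, 10.56 and 10.67 on the GFP Recurred arrays, 10.57 and 11.20 on the Cre Naïve arrays and 10.67 and 10.73 on the GFP Naïve arrays. The Cre Recurred arrays nearly coincided, and 5 of the other 6 arrays lay between 10.56 and 10.73, with Cre Naïve replicate 2 close to the Cre Recurred level (1.55-fold, 0.63 ± 0.20 SE, adjusted p = 0.18). A dimmer Bub1 probe set, with a mean of 6.74, gave 0.18 (adjusted p = 0.79).

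Mad2l1, whose protein binds and restrains Cdc20, had 12.19 and 11.96 in Cre Recurred, 11.50 and 11.56 in GFP Recurred, 11.73 and 11.88 in Cre Naïve and 11.47 and 12.05 in GFP Naïve cells. The GFP Naïve arrays differed more from each other than the recurred means did, and the 0.55 between Cre Recurred and GFP Recurred cells passed the adjusted p (0.24) but not 1.5-fold. Ttk, the Mps1 kinase, had 9.42 and 9.66 in Cre Recurred, 8.97 and 9.19 in GFP Recurred, 9.33 and 9.71 in Cre Naïve and 9.40 and 9.32 in GFP Naïve cells and was lowest in GFP Recurred cells, with a difference of 0.46 that stayed under 1.5-fold (adjusted p = 0.25). Bub1b, the gene of the checkpoint protein BubR1, did not share this order, at 9.73 and 10.29 in Cre Recurred against 9.99 and 10.08 in GFP Recurred cells (-0.02, adjusted p = 0.97).

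The kinesins had the highest median of the role groups at 0.64 (0.28 to 1.01), with 2 of 5 called. Cenpe, the kinesin that carries chromosomes to the spindle equator, had 10.20 and 10.51 on the Cre Recurred arrays, 9.22 and 9.47 on the GFP Recurred arrays, 9.57 and 10.75 on the Cre Naïve arrays and 9.55 and 9.60 on the GFP Naïve arrays. Its 2.02-fold difference between Cre Recurred and GFP Recurred cells was the largest of the 42 genes (1.01 ± 0.35 SE, adjusted p = 0.21), and the gap of 1.17 between its Cre Naïve arrays was the largest between any replicates of these genes. Without Cre Naïve replicate 1 or without Cre Naïve replicate 2 its adjusted p was 0.041, while without a recurred array it was at least 0.41.

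Kif20a, a kinesin of the central spindle, had 10.62 and 11.01 on the Cre Recurred arrays, 10.27 and 10.02 on the GFP Recurred arrays, 10.44 and 10.92 on the Cre Naïve arrays and 10.25 and 10.64 on the GFP Naïve arrays. GFP Recurred replicate 2 was its lowest array, and it was 1.59-fold higher in Cre Recurred cells (0.67 ± 0.23 SE, adjusted p = 0.21). Kif23, a motor of the centralspindlin complex, had 10.08 and 10.32 in Cre Recurred, 9.64 and 9.55 in GFP Recurred, 9.87 and 10.63 in Cre Naïve and 9.65 and 9.90 in GFP Naïve cells and exceeded 1.5-fold (0.60), but not the adjusted p (0.29). Kif11, the motor that pushes spindle poles apart, likewise reached 0.64 with an adjusted p of 0.41. For Kif2c, a microtubule depolymerase, probe sets disagreed, with 0.28 (adjusted p = 0.68) from the brightest, at a mean of 10.11, 0.62 (adjusted p = 0.28) from one at 9.02 and 1.09 (adjusted p = 0.23) from one at 7.12.

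Kinetochore and centromere genes had a median of 0.38 (-0.08 to 0.85), with 1 of 5 called. Cenpf, a large kinetochore protein that accumulates in G2, had 9.79 and 10.22 on the Cre Recurred arrays, 8.98 and 9.34 on the GFP Recurred arrays, 9.46 and 10.15 on the Cre Naïve arrays and 9.18 and 9.37 on the GFP Naïve arrays. GFP Recurred replicate 1 was its lowest array, and Cre Recurred cells were 1.80-fold higher than GFP Recurred cells (0.85 ± 0.27 SE, adjusted p = 0.17). Cenpa, the centromeric histone H3 variant, had 10.88 and 11.19 in Cre Recurred, 10.67 and 10.31 in GFP Recurred, 10.84 and 11.31 in Cre Naïve and 10.72 and 10.64 in GFP Naïve cells, and its difference of 0.55 stayed under 1.5-fold (adjusted p = 0.25).

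None of the 4 subunits of the Ndc80 complex, which grips microtubule ends, passed the test. Nuf2 differed by 0.38 (adjusted p = 0.27) and Ndc80 by 0.36 (adjusted p = 0.55). Spc25, a subunit of the same complex, had 10.22 and 10.70 in Cre Recurred against 10.36 and 10.71 in GFP Recurred cells, a difference of -0.08 (adjusted p = 0.91). Spc24, their partner subunit, which is not one of the 42 genes, differed by 0.37 (adjusted p = 0.45).

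The chromosomal passenger and Cdca genes had a median of 0.48 (0.22 to 0.55) and 0 of 3 called. Both Cre Recurred arrays lay above both GFP Recurred arrays for all 3, where 31.2% of all probe sets did so. Birc5, the gene of survivin, had 11.55 and 11.57 in Cre Recurred, 11.18 and 10.99 in GFP Recurred, 11.03 and 11.48 in Cre Naïve and 10.94 and 11.31 in GFP Naïve cells. The Cre Recurred arrays were its highest, and the difference of 0.48 had an adjusted p of 0.28. Cdca3, the gene of the mitotic entry factor Tome-1, had 11.08 and 11.31 in Cre Recurred, 10.75 and 10.54 in GFP Recurred, 10.88 and 11.36 in Cre Naïve and 10.52 and 10.99 in GFP Naïve cells, with Cre Naïve replicate 2 above both Cre Recurred arrays (0.55, adjusted p = 0.28). Cdca8, which encodes borealin, differed by 0.22 (adjusted p = 0.54).

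Of the genes around the anaphase promoting complex, 1 of 4 was called and the median was 0.43 (0.15 to 0.71). Ube2c, the ubiquitin-conjugating enzyme of the complex, had 12.47 and 12.63 on the Cre Recurred arrays, 11.80 and 11.89 on the GFP Recurred arrays, 11.89 and 12.31 on the Cre Naïve arrays and 11.72 and 12.06 on the GFP Naïve arrays. The Cre Recurred arrays were above all 6 others, and it had the smallest adjusted p of the 42 genes (1.63-fold, 0.71 ± 0.19 SE, adjusted p = 0.12). Espl1, the gene of separase, had 10.44 and 10.46 in Cre Recurred, 9.94 and 9.83 in GFP Recurred, 9.83 and 10.31 in Cre Naïve and 9.65 and 9.80 in GFP Naïve cells. It passed the adjusted p (0.17) but not 1.5-fold (0.56). Cdc20, the activator that the checkpoint restrains, differed by 0.29 (adjusted p = 0.53), and Pttg1, the gene of securin, by 0.15 (adjusted p = 0.67).

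Among proteins of spindle microtubules, 2 of 5 genes were called and the median was 0.42 (0.31 to 0.66). Prc1, which bundles antiparallel microtubules in the midzone, had 10.65 and 11.01 on the Cre Recurred arrays, 10.10 and 10.23 on the GFP Recurred arrays, 10.46 and 11.11 on the Cre Naïve arrays and 10.30 and 10.25 on the GFP Naïve arrays. Every Cre array exceeded every GFP array, and it was 1.58-fold higher in Cre Recurred than in GFP Recurred cells (0.66 ± 0.23 SE, adjusted p = 0.21). Ckap2, a spindle stabilising protein, had 10.88 and 11.19 on the Cre Recurred arrays, 10.27 and 10.51 on the GFP Recurred arrays, 10.85 and 11.14 on the Cre Naïve arrays and 10.50 and 11.08 on the GFP Naïve arrays. It was 1.56-fold higher in Cre Recurred cells (0.65 ± 0.23 SE, adjusted p = 0.22), but GFP Naïve replicate 2 was also high. Tpx2, the Aurora A activator, differed by 0.42 (adjusted p = 0.29), Hmmr by 0.41 (adjusted p = 0.39) and Nusap1 by 0.31 (adjusted p = 0.71).

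The cytokinesis genes had a median of 0.51 (0.44 to 0.56) with 0 of 3 called. Both Cre Recurred arrays again lay above both GFP Recurred arrays for all 3, against 31.2% of all probe sets. Anln, the actin-binding protein anillin of the contractile ring, had 11.82 and 11.67 in Cre Recurred, 11.34 and 11.29 in GFP Recurred, 11.58 and 11.64 in Cre Naïve and 11.72 and 11.56 in GFP Naïve cells. Its GFP Recurred values were below the 6 others, and the 0.44 between the recurred populations stayed under 1.5-fold with an adjusted p of 0.15. Ect2, the exchange factor that activates RhoA at the division plane, had 9.88 and 9.95 in Cre Recurred, 9.37 and 9.34 in GFP Recurred, 9.33 and 10.14 in Cre Naïve and 9.38 and 9.42 in GFP Naïve cells. Cre Naïve replicate 2 was its highest array, and the difference of 0.56 had an adjusted p of 0.31. Racgap1, its centralspindlin partner, differed by 0.51 (adjusted p = 0.32).

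Foxm1, a transcription factor of the late cell cycle, had 9.49 and 9.52 in Cre Recurred, 9.04 and 8.90 in GFP Recurred, 9.10 and 9.52 in Cre Naïve and 8.49 and 9.24 in GFP Naïve cells. GFP Naïve replicate 1 was far below its partner, and the 0.54 between Cre Recurred and GFP Recurred cells did not pass (adjusted p = 0.35). Top2a, the topoisomerase that untangles sister chromatids, had 11.58 and 11.96 in Cre Recurred, 11.37 and 11.55 in GFP Recurred, 11.51 and 11.89 in Cre Naïve and 11.26 and 11.19 in GFP Naïve cells, a difference of 0.31 (adjusted p = 0.48).

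Set side by side for Cre Recurred against GFP Recurred cells, the role medians were 0.64 for kinesins, 0.50 for checkpoint genes, and 0.38 for both kinetochore genes and mitotic kinases. The ranges of these 4 groups overlapped and their difference was not tested. All 10 role groups had positive medians in this comparison, from 0.38 to 0.64.

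**Figure D3:**
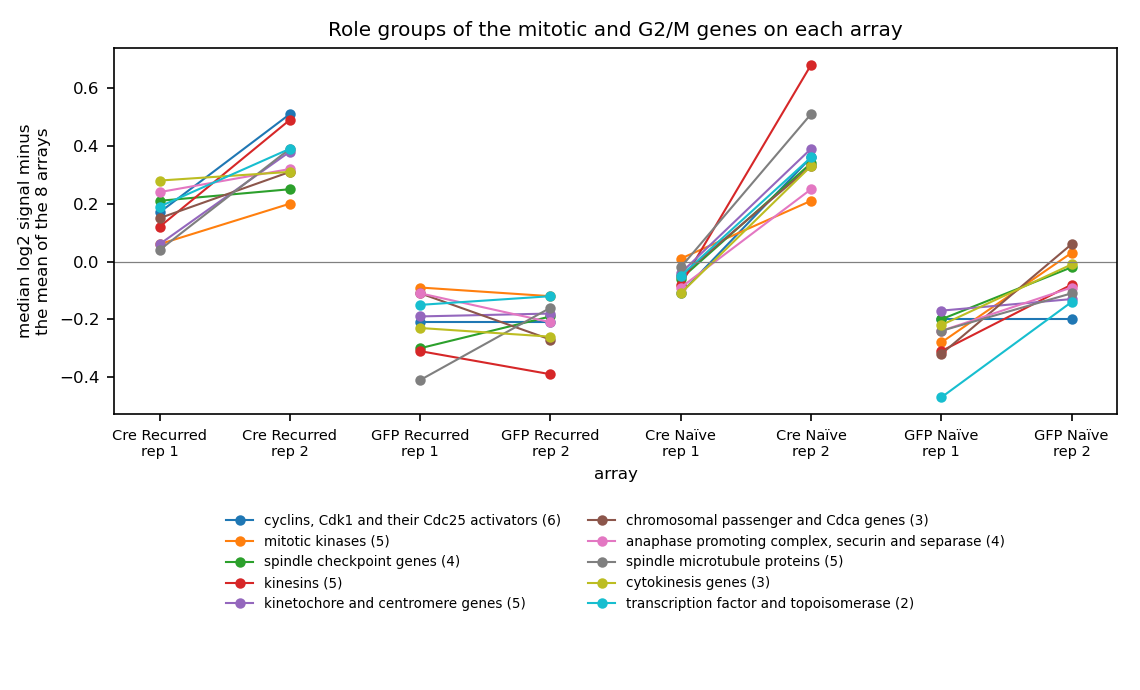
Median log2 RMA signal of each role group relative to the mean of the 8 arrays (vertical axis) on every array (horizontal axis), with lines joining the replicates of a population and the number of genes in brackets. All 10 groups are below 0 on both GFP Recurred arrays and above 0 on both Cre Recurred arrays and on Cre Naïve replicate 2.

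The remaining probe sets of the same genes were examined for agreement. Of the 42 genes, 28 had more than 1 probe set, giving 50 others, of which 39 were higher and 10 lower in Cre Recurred than in GFP Recurred cells (median 0.24). Among the 19 with a mean of at least 8, 18 were higher. For 6 genes another probe set was called, namely Ccna2, Cdc25c, Nek2, Kif11, Kif2c and Hmmr. With the mean over all probe sets of a gene, 6 genes were called, where 1866 of 18193 genes were called in either direction. Bub1 (0.41, adjusted p = 0.34), Cenpe (0.82, adjusted p = 0.34), Ccnf (0.56, adjusted p = 0.28), Cenpf (0.48) and Prc1 (0.56) then no longer passed both thresholds.

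Before cisplatin, RB-deficient and RB-proficient cells were compared. Cre Naïve cells were higher than GFP Naïve cells in 40 of the 42 genes, where 49.3% of all probe sets were higher. Their median was 0.30 (-0.05 to 0.65), against 0 for all probe sets. None of the genes was called by limma (0 of 42, where 0% of all probe sets were called), with an adjusted p of 1 for each, and the SAM-type statistic also called 0. The targeted gene Rb1, at -2.06, was not called by limma here either, so a missing call does not show equal levels. At an unadjusted p under 0.05 there were 2 genes, Cdc25b (0.52) and Top2a (0.48), against 2.57% of all probe sets. The genes at or above 1.5-fold were 3, Nusap1 (0.65), Kif11 (0.62) and Cenpe (0.59). The arrays did not overlap for 18 genes, all higher in Cre Naïve cells, where 13.8% of all probe sets lay higher without overlap. When Cre Naïve replicate 2 was left out, the remaining Cre Naïve array was above both GFP Naïve arrays for 19 genes, against 27.4% of all probe sets.

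The level of the Cre Naïve cells depended on replicate 2. Without it the median difference from GFP Naïve cells was 0.08 with 0 called, and without Cre Naïve replicate 1 it was 0.51, where Cenpe was called (1.17, adjusted p = 0.22) and 0.611% of all probe sets were. Replicate 2 exceeded replicate 1 for 40 of the 42 genes in Cre Naïve cells, with a median gap of 0.43, against a median absolute gap of 0.19 between these arrays over all probe sets.

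Recurred and naïve cells of the same RB status were set against each other. Cre Recurred cells differed from Cre Naïve cells by a median of 0.10 (-0.27 to 0.48), against 0.05 for all probe sets. Of the 42 genes, 29 were higher and 13 lower, where 58.9% of all probe sets were higher. For 9 genes both Cre Recurred arrays were above both Cre Naïve arrays, against 27.5% of all probe sets. By limma 0 of 42 were called, against 1.16% of all probe sets. At an unadjusted p under 0.05 there were 2 of 42, against 12% of all probe sets. These were Ccnf (0.48, adjusted p = 0.42) and Ube2c (0.45, adjusted p = 0.41). Next came Cdk1 (0.27, adjusted p = 0.44), Espl1 (0.38, adjusted p = 0.45) and Bub1 (0.36, adjusted p = 0.51). Without Cre Naïve replicate 2 the median was 0.28 and 7 genes were called higher (Ccna2, Ccnf, Bub1, Cenpe, Ube2c, Espl1 and Ect2), where 2895 of all probe sets (6.43%) were called in either direction. Both Cre Recurred arrays were then above the remaining Cre Naïve array for 31 genes, against 46.7% of all probe sets. Without Cre Naïve replicate 1 the median was -0.13 with 0 called, against 0.46% of all probe sets.

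GFP Recurred cells differed from GFP Naïve cells by a median of -0.09 (-0.40 to 0.27), against 0.01 for all probe sets. Of the genes 29 were lower and 13 higher, where 51.7% of all probe sets were higher. By limma 0 of 42 were called, against 0.0133% of all probe sets. Only 1, Anln, had an unadjusted p under 0.05 (-0.33 ± 0.13 SE, adjusted p = 0.87), against 5.52% of all probe sets. The next in order of p were Ckap2 (-0.40), Ttk (-0.28), Cdc25b (0.27) and Top2a (0.24), with adjusted p of 0.87 to 0.89. The median stayed between -0.16 and -0.02 whichever array was left out.

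**Figure D4:**
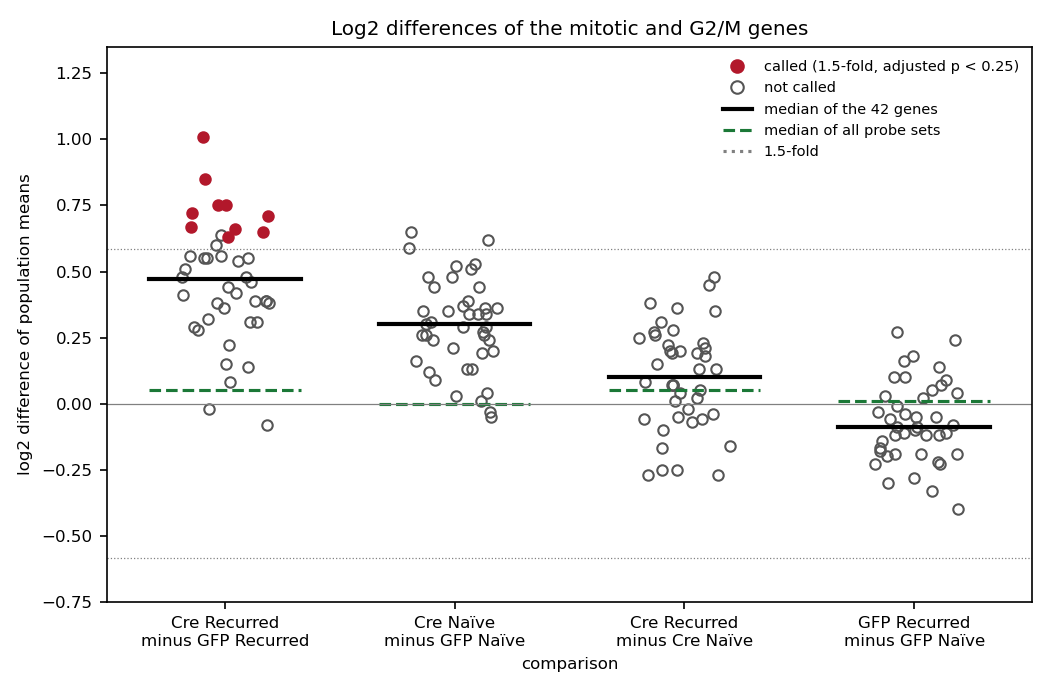
Log2 difference of population means (vertical axis) for each of the 42 genes in 4 comparisons (horizontal axis), with called genes filled in red, the median of the genes as a black line, the median of all probe sets as a dashed green line and 1.5-fold dotted. Called genes appear only between Cre Recurred and GFP Recurred cells, where the median is 0.47, against 0.30, 0.10 and -0.09 in the others.

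Over both states together, Cre cells were higher than GFP cells in 42 of the 42 genes, where 55.5% of all probe sets were higher. The median was 0.39 (0.02 to 0.80), against 0.02 for all probe sets. None was called by limma (0 of 42, against 1.29% of all probe sets), and 25 had an unadjusted p under 0.05, against 11.5% of all probe sets. The smallest adjusted p was 0.27. Cenpe had the largest difference (0.80 ± 0.25 SE, adjusted p = 0.30), followed by Cenpf (0.69, adjusted p = 0.27) and Prc1 (0.59, adjusted p = 0.28). All 4 Cre arrays exceeded all 4 GFP arrays for 7 genes, Ccnb2, Cdc25c, Cenpa, Cenpf, Tpx2, Prc1 and Hmmr, where 2.26% of all probe sets did so. With Cre Naïve replicate 2 left out this held for 8 genes, against 3.83% of all probe sets, and 0 genes were called, at a median of 0.27 and with 0.593% of all probe sets called. Without Cre Naïve replicate 1, 11 genes were called, Cenpe at 1.09 (adjusted p = 0.021) among them, where 2403 of all probe sets (5.34%) were called.

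Recurrence had no common direction over both genotypes. Recurred cells were higher than naïve cells in 22 genes and lower in 20, with a median of 0, where 56.1% of all probe sets were higher. By limma 0 of 42 were called, against 0.0688% of all probe sets. At an unadjusted p under 0.05 there were 0, against 7.64% of all probe sets. The difference between the recurrence effects of Cre and GFP cells (the interaction) had a median of 0.17 (-0.33 to 0.51), against 0.05 for all probe sets. It called 0 of 42 by limma, against 0.4% of all probe sets. Only 1 gene, Anln, had an unadjusted p under 0.05 (0.46, adjusted p = 0.46), against 10.3% of all probe sets. Without Cre Naïve replicate 2 the interaction called Bub1 (0.76, adjusted p = 0.23) and Cenpe (1.01, adjusted p = 0.23), at a median of 0.40 and with 1611 of all probe sets (3.58%) called. The fit without Cre Naïve replicate 1 called 0 at a median of -0.06, with 0.313% of all probe sets called.

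For Cdk1 and Anln the recurred arrays lay on opposite sides of their naïve arrays. Their Cre Recurred arrays were above both Cre Naïve arrays and their GFP Recurred arrays below both GFP Naïve arrays. These were 2 of the 42 genes, against 5.38% of all probe sets, and the interaction passed for neither (Cdk1 0.36, adjusted p = 0.52).

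A further 113 mitotic genes with a probe set extended the list. In Cre Recurred against GFP Recurred cells 20 of them were called higher and 0 lower, against 4.08% of all probe sets called higher. Their median was 0.26 and 86 were higher, against a median of 0.05 and 58.2% higher over all probe sets. In each of the other 3 comparisons of 2 populations 0 were called. Kinetochore and centromere genes gave 5 of 26 called (Cenpn, Cenpq, Pmf1, Ska1 and Sgo1, median 0.40), spindle and cytokinesis genes 4 of 18 (Dlgap5, Psrc1, Cep55 and Shcbp1, median 0.46), and entry kinases 3 of 13 (Haspin, Pbk and Bora, median 0.33). Condensin and cohesin genes gave 3 of 14 (Smc4, Ncapg and Stag1, median 0.19), subunits and regulators of the anaphase promoting complex 2 of 15 (Fzr1 and Fbxo5, median -0.02), B-Myb and MuvB genes 2 of 11 (Mybl2 and Rbl1, median 0.13), checkpoint genes 1 of 8 (Cdca2, median 0.12) and further kinesins 0 of 8 (median 0.30).

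Bora, the cofactor through which Aurora A activates Plk1, was the most separated of these, at 8.76 and 8.76 on the Cre Recurred arrays, 7.61 and 7.55 on the GFP Recurred arrays, 8.36 and 8.16 on the Cre Naïve arrays and 8.10 and 7.99 on the GFP Naïve arrays. The Cre Recurred arrays were identical to 2 decimals and highest, the GFP Recurred arrays lowest (1.18, adjusted p = 0.026). Over both states, Cre against GFP, it was called as well (0.70, adjusted p = 0.10), as was Ska1 (0.81, adjusted p = 0.24). Pbk, a mitotic kinase, had 11.58 and 11.51 in Cre Recurred, 10.68 and 10.78 in GFP Recurred, 11.23 and 11.11 in Cre Naïve and 11.07 and 11.10 in GFP Naïve cells and passed at the stricter threshold too (0.81, adjusted p = 0.047).

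Mybl2, the gene of B-Myb itself, had 9.13 and 8.60 in Cre Recurred, 7.70 and 7.72 in GFP Recurred, 7.76 and 8.29 in Cre Naïve and 7.68 and 7.98 in GFP Naïve cells. The Cre Recurred arrays were above the 6 others, with a difference from GFP Recurred cells of 1.15 (adjusted p = 0.083). Dlgap5, a spindle protein, differed by 0.74 (adjusted p = 0.053), Cenpn, which recognises the centromeric nucleosome, by 0.84 (adjusted p = 0.052), and Stag1, a cohesin subunit, by 0.62 (adjusted p = 0.063). Mki67, the proliferation marker Ki-67, showed no such separation, at 11.45 and 12.06 in Cre Recurred, 11.41 and 11.72 in GFP Recurred, 11.59 and 11.81 in Cre Naïve and 11.39 and 11.39 in GFP Naïve cells (0.19, adjusted p = 0.74).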

How the data were processed

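Total RNA of 8 samples was hybridized to Affymetrix GeneChip arrays of the mouse genome, and the authors deposited log2 signals from RMA (background correction, quantile normalization and summary of probes per probe set). Which program computed RMA is not given in the sources used here. Probe-level data were not used here. Of 45101 probe sets, 64 controls were left out. Symbols came from the array annotation (34945 probe sets with 1 symbol, 932 with several and 9160 with none). Array medians ran from 5.38 to 5.41, and the number of arrays limits the precision.

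Population means were fitted by limma 3.58.1 (R 4.3.3) over all 8 arrays (4 residual and 3.07 prior degrees of freedom) and Benjamini-Hochberg adjustment over 45037 probe sets. The study's SAM thresholds, 1.5-fold and FDR under 0.25, were kept. In total 7 contrasts were run. The smallest two-sided permutation p that 2 arrays against 2 allow is 0.333. Scripts were tested on simulated data. Figures were drawn with matplotlib.

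The members, the 10 role groups and the further lists were chosen with earlier results of these data known. Values on every array are given for 27 members, those with the 5 smallest p in each comparison of 2 populations, the 2 smallest F-test p in each role group, 8 fixed genes with a probe set and every called gene. Of the further genes, the called ones and the 6 with the smallest F-test p are named. Outside this rule, Spc24 was named as a subunit of the Ndc80 complex, and Mki67 was named after its values were seen. Alternatives were cyclic loess, median centring, a trended and robust prior, array weights, the replicate number as a block, filters on dim and on shared probe sets, the mean of all probe sets of a gene, only the arrays compared, a SAM-type statistic, and leaving out each array. Promoter motifs were counted on both strands of the RefSeq windows, so genes with several starts count more than once.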

Additional observations from a re-analysis of the deposited data

Results flagged for a closer look

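Bora was called by the interaction test of limma, at a log2 difference of 0.97 (adjusted p = 0.24 over all probe sets). Cre Recurred lay above Cre Naïve cells by 0.50 (adjusted p = 0.29) and GFP Recurred cells at -0.47 from GFP Naïve cells (adjusted p = 0.87), and neither change was called by itself. It was the only gene of the 113 further mitotic genes past this test, and 0 of the 42 listed genes passed it, against 0.4% of all probe sets. The adjusted p of Bora lay just under the study's threshold. Its call was lost without either GFP Recurred array or without Cre Recurred replicate 1. In those fits the calls of this test were lost over all probe sets, so the loss does not single out Bora. Every fit without an array reads a population from a lone array.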

How the results depend on the processing

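With all arrays kept, the median differences of the 42 genes kept their sign in each of the 4 comparisons of 2 populations under every alternative run. In Cre Recurred against GFP Recurred cells the 10 calls became 6 with the mean of all probe sets of a gene, where 1866 of 18193 genes were called. Without shared probe sets 33 of the genes remained, Cdc25c, Kif20a and Prc1 not among them. Of these 8 were called, Nek2 included, where 2980 of 36082 probe sets were called. The calls ran up to 12 under the other alternatives. Leaving out any recurred array removed the 10 calls, and the median stayed between 0.37 and 0.56 whichever array was left out. Over both states, Cre against GFP, the 0 calls became 1 with array weights (Prc1), 2 with the replicate block (Kif11 and Cenpf), 2 without dim probe sets (Cenpf and Prc1), 2 with the mean of all probe sets (Ccna2 and Kif11) and 0 to 11 leaving out an array (medians 0.27 to 0.50). Leaving out an array gave 0 to 7 calls and medians of -0.13 to 0.28 in Cre Recurred against Cre Naïve cells, 0 to 1 and 0.08 to 0.51 in Cre Naïve against GFP Naïve cells, and 0 to 2 and -0.06 to 0.40 for the interaction, the extremes of each with one or the other Cre Naïve array left out. It gave 0 calls throughout in GFP Recurred against GFP Naïve cells and in Recurred against Naïve cells. A lone array was assumed to vary like the others, and the cause of the lost calls was not tested. The replicate numbers were not taken as pairs (correlations of replicate deviations between populations from -0.25 to 0.31 over all probe sets and from -0.17 to 0.57 over the 42 genes), and the replicate block gave 12 calls in Cre Recurred against GFP Recurred cells. Array weights could not differ between the replicates of a population, because 2 arrays lie equally far from their mean. They therefore do not rate Cre Naïve replicate 2 against its partner.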
